A study of Arabidopsis thaliana with 4 samples.

Results

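The aliphatic glucosinolate genes described here are 9 genes of Arabidopsis thaliana, chosen by name and locus from 34262 genes in each deposited table. They are 3 regulators (MYB28, MYB29 and MYB76), 3 genes of side-chain elongation (BCAT4, MAM1 and MAM3) and 3 cytochrome P450 genes of the core structure (CYP79F1, CYP79F2 and CYP83A1). The study sequenced RNA from 14-day-old seedlings of the accession Col-0, grown in long days at 22 °C, of the wild type (WT), the single mutant hda6, the double mutant ldl1/2 and a mutant labelled hda6/ldl1/2. HDA6 encodes a histone deacetylase, and LDL1 and LDL2 encode histone demethylases of the LSD1 family. The labels name no allele, transgene or treatment, and the mutants were compared with the same WT.

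Glucosinolates are sulfur-containing defence compounds of the cabbage order, and their breakdown products deter herbivores and microbes. The aliphatic class is built from methionine, whose side chain is lengthened in the chloroplast before a shared set of reactions builds the core and other enzymes modify the side chain. In Arabidopsis, transcription of these genes is driven by MYB28, MYB29 and MYB76, which act together with MYC-type factors such as MYC2.

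With 1 sample listed per genotype, no error between plants can be given. Low group means in the authors' deposited tables fell on steps of whole reads from 3 WT libraries (48.6 M to 51.6 M reads) and 2 libraries of each mutant (40.2 M to 49.4 M reads), and most of the smallest steps were 1 read pair. What separates these libraries is not stated, so the deposited p-values and false discovery rates (FDR) measure a spread which may be technical. In the text a gene rose or fell only where the deposited FDR was under 0.05 and the larger group mean at least 1 RPKM, a read count divided by exon length and by depth. As a check of the labels, LDL1 and LDL2 fell in ldl1/2 (log2 fold changes of -0.79 and -1.17 in the authors' deposited table). For the hda6/ldl1/2-labelled samples the authors' deposited table gave 0.05 and -0.32 for them (FDR 1.000 and 0.585), so neither transcript was called lower there, and every direction for these samples is given for the label. The transcript HDA6 rose in hda6 (0.53) and in the hda6/ldl1/2-labelled samples (0.59) in the authors' deposited table, and a transcript level does not show whether the protein works.

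All 9 genes fell in ldl1/2, with levels of 21.3% to 75.5% of WT (median 28.4%), where 4.09% of all genes tested were called lower. None fell in hda6 or in the hda6/ldl1/2-labelled samples, where 4.31% and 7.82% of all genes were called lower. With such shares 9 genes are too few to read anything into that absence. The level in ldl1/2 was the lowest of the 4 genotypes for 9 of 9 genes. The deposited tables print only the larger of both group means, so the WT means of all 9 genes and 12 of 27 mutant means were read directly. The other 15 mutant means, which include every ldl1/2 level, were computed from the WT mean and the deposited fold change. The check used genes with both means printed, above 5 RPKM in WT and with a log2 fold change above 0.2. There the computation was within 0.0116 on the log2 scale for 99% of genes in each comparison. Genes of this same kind also set the constant per comparison that the computation uses. Genes lower in the mutant, as every member was in ldl1/2, and genes at lower levels could not be checked in this way.

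**Figure D1:**
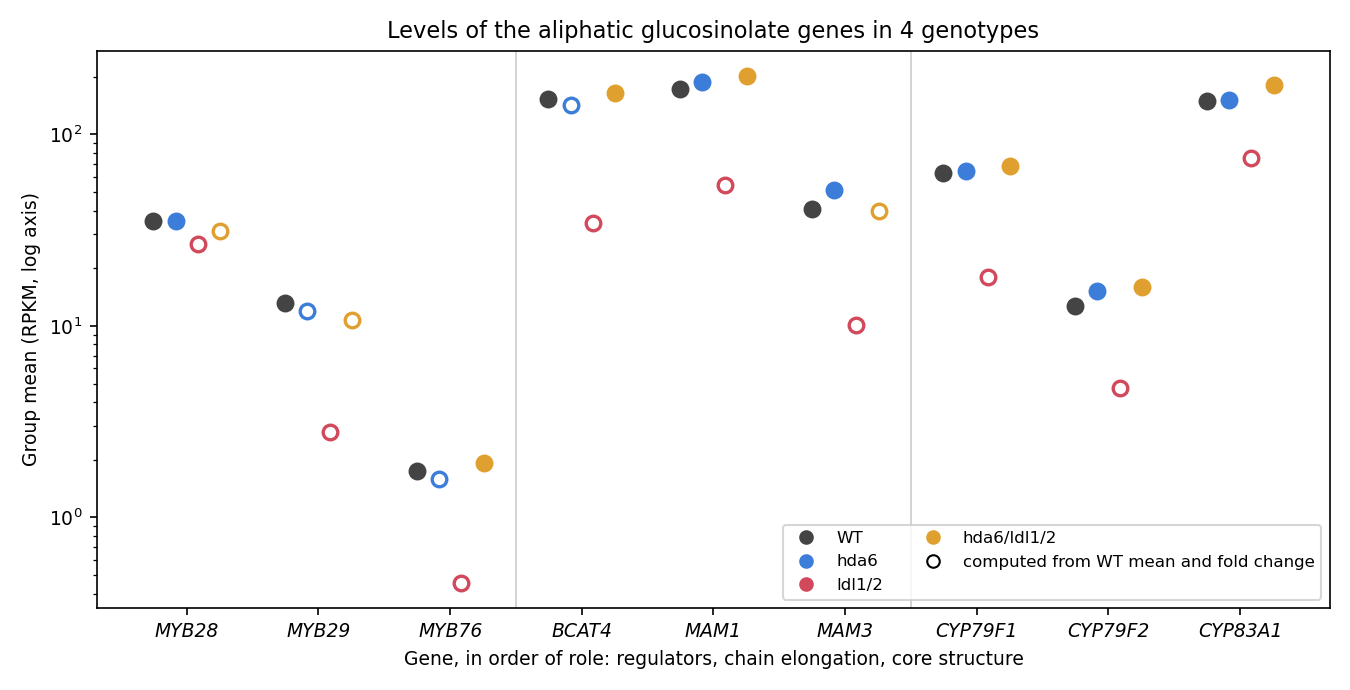
Group means in RPKM (log axis) of the 9 genes in WT, hda6, ldl1/2 and the hda6/ldl1/2-labelled samples; filled points were printed in the deposited tables and open points were computed from the WT mean and the fold change. The ldl1/2 point is the lowest for each gene, with MYB28 showing the smallest gap (26.8 against 35.4 RPKM in WT) and MYB29 the widest in relative terms (2.79 against 13.1 RPKM).

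The regulators differed most among themselves. MYB28, regarded as the main activator of the pathway, had 35.4 RPKM in WT and 35.5 RPKM in hda6 in the authors' deposited tables, with computed levels of 26.8 RPKM in ldl1/2 and 31.4 RPKM in the hda6/ldl1/2-labelled samples. Its fall in ldl1/2 was the smallest of the 9 genes, with a log2 fold change of -0.44 and an FDR of 0.00434 in the authors' deposited table. MYB29, its close relative, had 13.1 RPKM in WT in the authors' deposited table and computed levels of 12.0 RPKM in hda6, 2.79 RPKM in ldl1/2 and 10.7 RPKM in the hda6/ldl1/2-labelled samples. The ldl1/2 level was thus 21.3% of WT, the log2 fold change -2.26 and the FDR listed as 0 in the authors' deposited table. Hence the level of MYB29 relative to MYB28, per exon length, was 0.370 in WT, 0.339 in hda6 and 0.342 in the hda6/ldl1/2-labelled samples but 0.104 in ldl1/2. This ratio was not tested.

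MYB76, an accessory activator, was the lowest of the 9 genes in every genotype. Its means were 1.75 RPKM in WT and 1.91 RPKM in the hda6/ldl1/2-labelled samples in the authors' deposited tables, and 1.58 RPKM in hda6 and 0.458 RPKM in ldl1/2 as computed. The ldl1/2 level corresponds to about 29 read pairs over the group, and an exact Poisson interval (95%) for counting error alone runs from 0.306 to 0.655 RPKM, below the WT interval of 1.52 to 2.01 RPKM. The log2 fold change was -1.97 (FDR 4.8e-07) in the authors' deposited table, but a pseudocount of 1 RPKM, added to the RPKM means, brings it to -0.92. MYB76 passed the expression filter in that comparison through its WT mean.

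MYB29 and MYB76 lie side by side on chromosome 5 (2446669 to 2448584 and 2450027 to 2451807, plus strand), 1442 bp apart, whereas MYB28 is elsewhere on chromosome 5 (24689069 to 24691187, minus strand). Over 954 aligned coding bases MYB29 and MYB76 are 77.5% identical, and the longest exact stretch shared by their transcripts is 30 bases, so a full read of 150 bases would not match both exactly. The 250 bases before the annotated starts of MYB29, with the largest fall, and MYB28, with the smallest, are shown 5′ to 3′ from TAIR10.1, at chr5:2446419-2446668 on the plus strand and chr5:24691188-24691437 on the minus strand. Capitals mark the 1 match to the motifs searched, described further on, and MYB28 has none.
MYB29: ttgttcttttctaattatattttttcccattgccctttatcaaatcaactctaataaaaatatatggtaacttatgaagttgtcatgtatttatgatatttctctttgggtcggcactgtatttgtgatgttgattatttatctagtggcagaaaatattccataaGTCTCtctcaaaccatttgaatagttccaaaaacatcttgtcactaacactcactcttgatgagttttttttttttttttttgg
MYB28: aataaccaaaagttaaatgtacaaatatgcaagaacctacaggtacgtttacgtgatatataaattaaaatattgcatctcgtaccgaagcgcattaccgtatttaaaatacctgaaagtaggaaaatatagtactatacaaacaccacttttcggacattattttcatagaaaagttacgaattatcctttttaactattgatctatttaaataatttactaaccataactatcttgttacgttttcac

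Among the genes of side-chain elongation the levels were high and the falls close to each other. BCAT4, the aminotransferase that starts the process on methionine (chromosome 3, 6846969 to 6849582), had 153 RPKM in WT and 164 RPKM in the hda6/ldl1/2-labelled samples in the authors' deposited tables, with computed levels of 142 RPKM in hda6 and 34.3 RPKM in ldl1/2. In ldl1/2 its log2 fold change was -2.18 with an FDR listed as 0 in the authors' deposited table, and no other member but MYB29 fell further. MAM1 and MAM3 encode methylthioalkylmalate synthases, which condense the 2-oxo acid with acetyl-CoA, and MAM3 is the one known for making long chains too.

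MAM1 (chromosome 5, 7703041 to 7706973) had the highest WT level of the 9 genes, with 172 RPKM in WT, 188 RPKM in hda6 and 201 RPKM in the hda6/ldl1/2-labelled samples in the authors' deposited tables and a computed 54.5 RPKM in ldl1/2. MAM3 (chromosome 5, 7718118 to 7721866) had 40.7 RPKM in WT and 51.1 RPKM in hda6 in the authors' deposited tables, and computed levels of 10.1 RPKM in ldl1/2 and 39.6 RPKM in the hda6/ldl1/2-labelled samples. Both fell in ldl1/2, with log2 fold changes of -1.69 and -2.05 and FDR listed as 0 in the authors' deposited table. They are neighbours with 11144 bp and no protein-coding gene between them. Their coding sequences are 83.8% identical over 1512 aligned bases with no exact stretch over 30 bases.

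In the core structure the falls were smaller on the whole. CYP79F1, which turns chain-elongated methionines into aldoximes, had 63.1 RPKM in WT, 64.2 RPKM in hda6 and 68.1 RPKM in the hda6/ldl1/2-labelled samples in the authors' deposited tables, against a computed 18.0 RPKM in ldl1/2. CYP79F2, its copy with a preference for long chains, had 12.7 RPKM in WT, 15.3 RPKM in hda6 and 16.0 RPKM in the hda6/ldl1/2-labelled samples in the authors' deposited tables, against a computed 4.75 RPKM in ldl1/2. For both genes the ldl1/2 level lay below those of the other genotypes, with log2 fold changes of -1.85 and -1.45 and FDR listed as 0 in the authors' deposited table. CYP83A1, which oxidises the aldoximes (chromosome 4, 7990429 to 7992429), had 149.7 RPKM in WT, 151 RPKM in hda6 and 181 RPKM in the hda6/ldl1/2-labelled samples in the authors' deposited tables and a computed 75.0 RPKM in ldl1/2. Its log2 fold change there was -1.03 (FDR 1.96e-11) in the authors' deposited table, so CYP83A1 kept 50.1% of its WT level and was the highest of the 9 genes in ldl1/2, whereas MAM1 and BCAT4 stood above it in WT.

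CYP79F2 and CYP79F1 are the closest copies among the members. They lie 1183 bp apart on chromosome 1 (5605044 to 5607498 and 5608682 to 5612064, plus strand), and their coding sequences are 91.9% identical over 1605 aligned bases. The longest exact stretch that their transcripts share, shown because it bears on how far reads can be told apart, is coding and has 100 bases, at chr1:5609966-5610065 in CYP79F1 and chr1:5606398-5606497 in CYP79F2.
CYP79F1 and CYP79F2: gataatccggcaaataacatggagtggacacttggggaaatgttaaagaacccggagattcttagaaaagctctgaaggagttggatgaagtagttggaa
None of 2594 windows of 150 bases in the CYP79F1 transcript occurs in that of CYP79F2. How the authors counted reads that match both has no description in the labels, so the separate levels of this pair are uncertain.

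As a whole, 9 of 9 members fell in ldl1/2, where 4.09% of 18928 genes past the filter were called lower and 4.41% higher. At an FDR under 0.01 all 9 were still called lower (2.95% of all genes lower, 3.24% higher), and 8 had in addition a log2 fold change of -1 or below (1.25% of all genes, with 1.37% past 1). The median log2 fold change of the members was -1.85, beside -0.01 over all genes tested, and 0.254% of all genes lay at or below that median. By role the medians were -1.97 for the regulators, -2.05 for chain elongation and -1.45 for the core structure in values of the authors' deposited table. Only MYB28 lay inside the range that holds the middle 90% of all genes, -0.48 to 0.59. RNA came from whole seedlings, in which fewer cells of a type and less RNA per cell cannot be told apart.

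In hda6 no member fell and 1 of 9 rose, where 4.31% and 4.38% of 18985 genes were called lower and higher. No member was called in either direction at an FDR under 0.01 (5.98% of all genes were) or with a log2 fold change past 1 in size (3.64% of all genes). A set of 9 genes is too small to set these counts against such shares. MAM3 rose, by 0.39 on the log2 scale (FDR 0.0143), in the authors' deposited table. The other 8 members lay between -0.09 and 0.32, and the median of the 9 was 0.07, beside -0.01 over all genes tested.

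In the hda6/ldl1/2-labelled samples no member fell and 2 of 9 rose, where 7.82% and 9.59% of 19052 genes were called lower and higher, and 2 genes are too few to set against that share. No member was called in either direction at an FDR under 0.01 (11.9% of all genes were) or with a log2 fold change past 1 in size (5.61% of all genes). For these shares too, 9 genes are too few. CYP79F2 rose by 0.47 (FDR 0.0250) and CYP83A1 by 0.41 (FDR 0.0323) on the log2 scale in the authors' deposited table. The median of the 9 was 0.25, beside -0.01 over all genes tested. The authors' scaling sets this comparison 0.13 above the ratio of RPKM means for all genes alike, and on the RPKM ratio CYP79F2 stood at 0.34, CYP83A1 at 0.28 and the median at 0.12.

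The levels of the mutants can also be set side by side, which takes WT out of the ratio. Levels in the hda6/ldl1/2-labelled samples were 1.17-fold (MYB28) to 4.77-fold (BCAT4) those in ldl1/2, with a median of 3.79-fold, as computed from the authors' deposited tables. Levels in hda6 were 1.33-fold (MYB28) to 5.08-fold (MAM3) those in ldl1/2, with a median of 3.45-fold, computed in the same way. The tables hold no test between mutants, so these differences were not tested. Both sets of ratios use RPKM means without the authors' scaling. On the log2 scale the RPKM ratio minus the deposited fold change was -0.06 in hda6 and 0.03 in ldl1/2. In the hda6/ldl1/2-labelled samples it was -0.13.

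**Figure D2:**
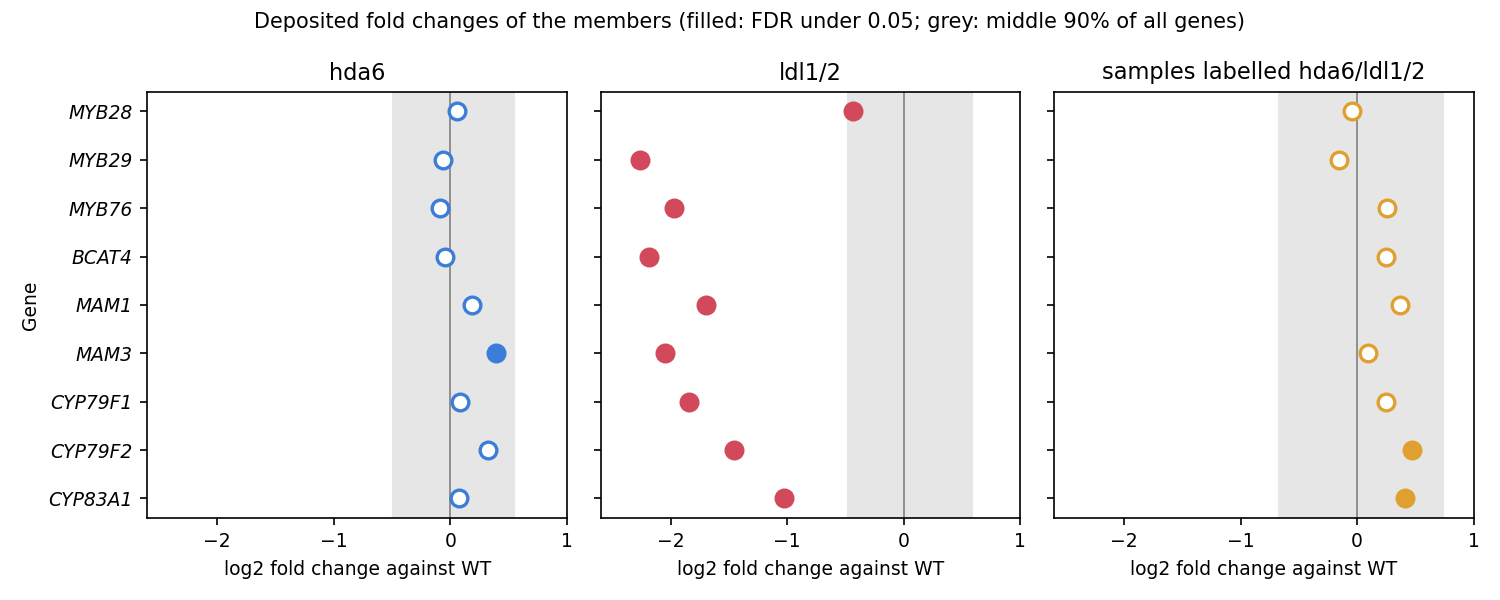
Deposited log2 fold changes against WT (horizontal axis) of the 9 genes in hda6, ldl1/2 and the hda6/ldl1/2-labelled samples; filled points have a deposited FDR under 0.05, and the grey band holds the middle 90% of all genes tested. In ldl1/2 all points are filled and 8 lie left of the band, while in the other comparisons all lie within it.

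The order of the levels was much alike in all genotypes, with MAM1, BCAT4 and CYP83A1 at the top and MYB29, CYP79F2 and MYB76 at the bottom. In WT the counting intervals of BCAT4 (150.2 to 155 RPKM) and CYP83A1 (148 to 152 RPKM) overlapped, as did those of MYB29 (12.5 to 13.7 RPKM) and CYP79F2 (12.2 to 13.3 RPKM). In ldl1/2 the order at the top was CYP83A1 (75.0 RPKM), MAM1 (54.5 RPKM) and BCAT4 (34.3 RPKM), all computed from the authors' deposited table, and MYB28 held rank 4, against rank 6 in WT. These intervals cover counting error only.

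The upstream windows of the 9 genes shared few of the motifs searched on both strands. The G-box CACGTG, to which MYC-type factors bind, was in 1 of 9 windows and in 6.49% of 27444 windows of the same length before protein-coding genes. AC elements, which R2R3-MYB factors bind (ACCTAAC or ACCAAAC or ACCTACC or ACCAACC), were in 2 of 9 windows and 13.7% of all. The letters GAGAC, the core of a sulfur-responsive element, were in 1 of 9 windows, that of MYB29 (read as GTCTC, 84 bases before the start), and in 25.8% of all. None of the matches overlapped. CYP83A1 had both a G-box, 43 bases before the start, and an AC element (ACCTACC on the other strand, 71 bases before the start), and the other AC element was that of CYP79F2. The CYP83A1 window, chr4:7992430-7992679 on the minus strand of TAIR10.1, is shown because it alone held matches to both, which are in capitals.
CYP83A1: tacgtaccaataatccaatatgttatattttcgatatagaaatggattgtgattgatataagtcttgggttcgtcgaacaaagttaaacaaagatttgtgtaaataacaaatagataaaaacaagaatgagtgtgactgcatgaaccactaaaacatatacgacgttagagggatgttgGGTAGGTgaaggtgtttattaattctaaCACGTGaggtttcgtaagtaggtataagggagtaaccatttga
A match describes the letters only, and other windows may hold other sites.

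Other steps of aliphatic synthesis moved with the members in ldl1/2. Of 20 further genes of chain elongation, core structure and side-chain modification past the filter, 16 fell and none rose. Their log2 median was -1.09 from the authors' deposited table. Over all genes 4.09% were called lower there and 4.41% higher. In chain elongation 6 of 6 fell, among them IPMI-SSU2 and IPMI-SSU3, small subunits of the isomerase, at -2.03 and -1.77, IPMDH1, the dehydrogenase, at -1.78 and BAT5, the chloroplast importer of the 2-oxo acids, at -1.88 in the authors' deposited table. IPMI-LSU1, the large subunit and the gene with the highest WT level of this list, fell by 0.66 and BCAT3, a second aminotransferase, by 0.63 in the authors' deposited table.

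Of 8 further core genes 7 fell, with GSTF11 and GSTU20, glutathione transferases, at -2.22 and -1.81 and the sulfotransferases SOT17 and SOT18 at -1.29 and -1.24 in the authors' deposited table. The remaining gene, GGP1, a gamma-glutamyl peptidase, was listed at -0.08 (FDR 1.000) in the authors' deposited table. The C-S lyase SUR1 (-0.71) and the glucosyltransferases UGT74B1 (-0.72) and UGT74C1 (-0.59) fell less than the transferases named before, in the authors' deposited table. Among side-chain modifying genes 3 of 6 fell and none rose, where 4.09% of all genes were called lower and 4.41% higher. A list of 6 genes is too small to read the absence of rises against that share. Those that fell were the S-oxygenases FMOGS-OX1 (-1.86) and FMOGS-OX3 (-1.60) and the hydroxylase GS-OH (-0.93) in the authors' deposited table. FMOGS-OX2, FMOGS-OX4 and FMOGS-OX5, relatives of the same function, stood at 0.12, 0.07 and 0.18 (FDR 0.699 or above) in the authors' deposited table. AOP3 and BZO1 were below the filter and AOP2 was not matched.

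In hda6 none of these 20 genes rose or fell, where 4.31% and 4.38% of all genes were called lower and higher. A list of 20 genes is too small to set this absence of calls against that share. In the hda6/ldl1/2-labelled samples 7 were called higher and 1 lower in the authors' deposited table, beside 9.59% and 7.82% of all genes. The authors' scaling raises all values of this comparison, as stated for the members. IPMI-SSU2 (0.53), IPMI-SSU3 (0.38), GGP1 (0.42), UGT74C1 (0.40), SOT17 (0.38), FMOGS-OX2 (0.47) and FMOGS-OX3 (0.36) rose and FMOGS-OX4 fell (-0.52) there in the authors' deposited table. The highest of these rises was that of IPMI-SSU2.

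The indole glucosinolates, built from tryptophan by a parallel route, moved in part. In ldl1/2 6 of 14 measured genes fell and 1 rose, with a median of -0.38 in the authors' deposited table. Over all genes 4.09% were called lower there and 4.41% higher. The entry enzymes CYP79B2 and CYP79B3 fell by 1.22 and 1.32, and CYP81F4, which modifies the indole ring, rose (0.47) in the authors' deposited table. GSTF9, a glutathione transferase with the highest WT level of this list (977 RPKM), fell by 0.64 (FDR 0.00143), the sulfotransferase SOT16 fell by 0.55 and the methyltransferase IGMT1 by 0.60 in the authors' deposited table. IGMT2, a close relative of IGMT1, fell instead in hda6 (-1.01) and in the hda6/ldl1/2-labelled samples (-1.43), where MYB51 fell (-0.76) and GSTF10 rose (0.44, FDR 0.0429), per the authors' deposited tables. In ldl1/2 the regulators MYB34 and MYB51 stood at -0.11 (FDR 1.000) and -0.34 (FDR 0.518), and CYP83B1, the counterpart of CYP83A1, at -0.43 (FDR 0.121) in the authors' deposited table. The kinases APK1 and APK2, which make the sulfate donor, fell by 0.60 and 1.14, whereas the transporters GTR1, GTR2 and GTR3 were listed at 0.27, -0.05 and 0.10 (FDR 0.199 or above) in the authors' deposited table. In hda6 APK2 fell by 0.46 in the authors' deposited table.

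Upstream factors and breakdown genes went in both directions in ldl1/2. MYC2 had 11.4 RPKM in WT and a computed 2.97 RPKM in ldl1/2, a change of -1.98 (log2, FDR 0.00254) in the authors' deposited table. MYC3 and MYC4 stood at 0.14 and 0.11 (FDR 0.918 or above) in the authors' deposited table. SDI1, which is induced by sulfur limitation and known to repress glucosinolate synthesis through MYB28, had 29.4 RPKM in WT and 226 RPKM in ldl1/2 in the authors' deposited tables, with a computed 8.63 RPKM in hda6 and a deposited 51.9 RPKM in the hda6/ldl1/2-labelled samples. It rose by 2.90 in ldl1/2 and by 0.93 in the hda6/ldl1/2-labelled samples and fell by 1.71 in hda6, in the authors' deposited tables. SDI2, its relative, rose in ldl1/2 by 0.91, and SLIM1, a regulator of the sulfur response, was listed at -0.16 (FDR 0.861) in the authors' deposited table. IQD1 and OBP2, further regulators, were listed at 0.07 and 0.17 in ldl1/2 (FDR 0.731 or above) in the authors' deposited table.

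BGLU28, a beta-glucosidase linked to glucosinolate breakdown in sulfur limitation, had a computed 2.14 RPKM in WT and 33.8 RPKM in ldl1/2, a rise of 3.95 on the log2 scale, in the authors' deposited table. In the hda6/ldl1/2-labelled samples it rose by 2.17, and in hda6 it was at 0.23 (FDR 1.000), according to the authors' deposited tables. NSP5 and NSP4, nitrile-specifier proteins, rose in ldl1/2 by 1.12 and 0.60, while ESM1, which favours isothiocyanates, fell by 1.03 in the authors' deposited table. ESM1 rose instead in hda6 (0.87) and in the hda6/ldl1/2-labelled samples (0.69) in the authors' deposited tables. The myrosinases TGG1 and TGG2 stood at 0.17 and 0.22 in ldl1/2 (FDR 0.682 or above) and rose in hda6 by 0.51 and 0.71 in the authors' deposited tables. ESP, the epithiospecifier protein, rose in hda6 (0.82) and in the hda6/ldl1/2-labelled samples (1.02), and TGG4, a root myrosinase, fell in the latter (-1.07), per the authors' deposited tables.

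Of 7 methionine genes 3 fell in ldl1/2 in the authors' deposited table, where 4.09% of all genes were called lower. HMT3, a homocysteine methyltransferase, fell to a computed 2.46 RPKM from 19.3 RPKM in WT. The methionine synthase ATMS2 (-0.53) and CGS1, which commits carbon to methionine (-0.39), fell too. ATMS1, the most abundant of the 7, was listed at -0.08 (FDR 1.000) and HMT1 at 0.24 (FDR 0.864) in the authors' deposited table. MGL, methionine gamma-lyase, which degrades methionine, rose in the hda6/ldl1/2-labelled samples (0.85) in the authors' deposited table. Every list here was chosen with earlier results of these data known, so the counts describe the pathway and support no claim beyond it.

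**Figure D3:**
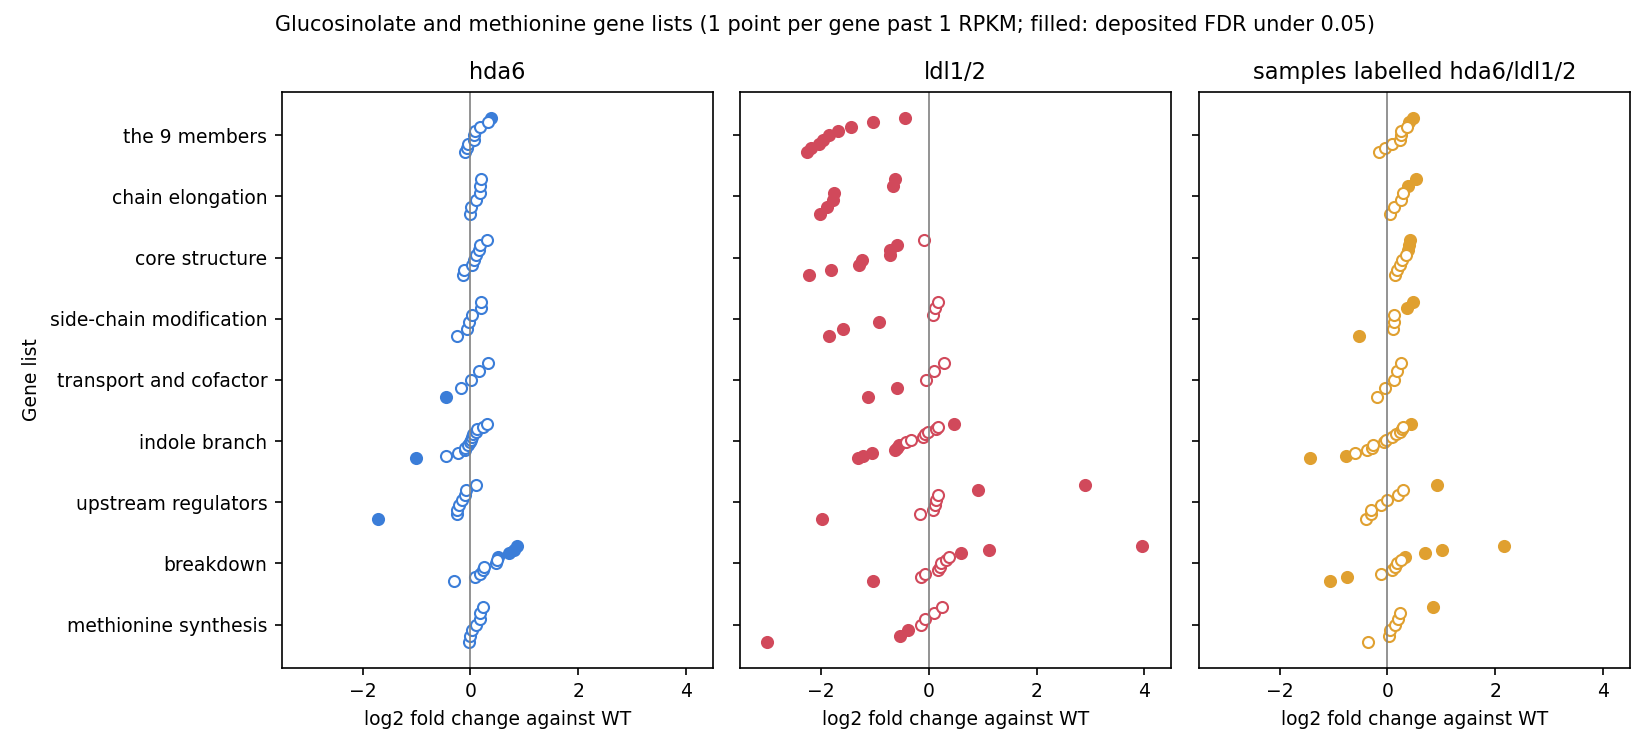
Deposited log2 fold changes against WT (horizontal axis) for the 9 members and 8 further gene lists (rows), 1 point per gene past 1 RPKM, in hda6, ldl1/2 and the hda6/ldl1/2-labelled samples; filled points have a deposited FDR under 0.05. In ldl1/2 the members and the chain elongation and core structure lists lie wholly left of 0. The outlying points there are SDI1 (2.90), BGLU28 (3.95) and HMT3, the lowest.

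The 9 genes lie in 6 places on 4 chromosomes, and of the 36 nearest protein-coding neighbours, 3 on each side, 24 passed the filter, 3 fell and 2 rose in ldl1/2 in the authors' deposited table. Their median log2 fold change was -0.02. The 3 that fell are 12.5% of the 24, where 4.09% of all genes were called lower, and the 2 that rose are 8.33%, where 4.41% of all were called higher. Whether neighbours differ from other genes was not tested, and these shares rest on few genes. The nearest neighbour that fell was OCT3, an organic cation transporter gene, which ends 274 bp before the start of CYP79F2. It had 9.31 RPKM in WT and a log2 fold change of -1.46 in ldl1/2 (FDR listed as 0) in the authors' deposited table. ACHT5, a thioredoxin gene 16258 bp from MYB28, fell by 1.12, and NAC079, a transcription factor gene 9008 bp before MYB29, fell by 0.72 (FDR 0.0346) in the authors' deposited table. The neighbours that rose were AT4G13800 (1.67, FDR 0.00950) beyond CYP83A1 and AT5G61412 (1.82, FDR 0.0274) next to MYB28, in the authors' deposited table. Both were below 1 RPKM in WT and passed the filter through their ldl1/2 mean alone, so their rise brought them into the count. In hda6 none of 22 fell and 2 rose, namely OCT3 (0.48) and XXT3 (1.41), in the authors' deposited table, which is 9.09% beside 4.38% over all genes. XXT3 had a computed 0.648 RPKM in WT and passed the filter through its hda6 mean. In the hda6/ldl1/2-labelled samples NAC079 (-0.71), NAC100 (-0.72) and ACHT5 (-0.75) fell and OCT6 (0.97) and XXT3 (1.06) rose among 22 in the authors' deposited table. These are 13.6% lower and 9.09% higher, beside 7.82% and 9.59% over all genes. OCT6 (a computed 0.941 RPKM in WT) and XXT3 passed the filter in this comparison through the mutant mean.

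**Figure D4:**
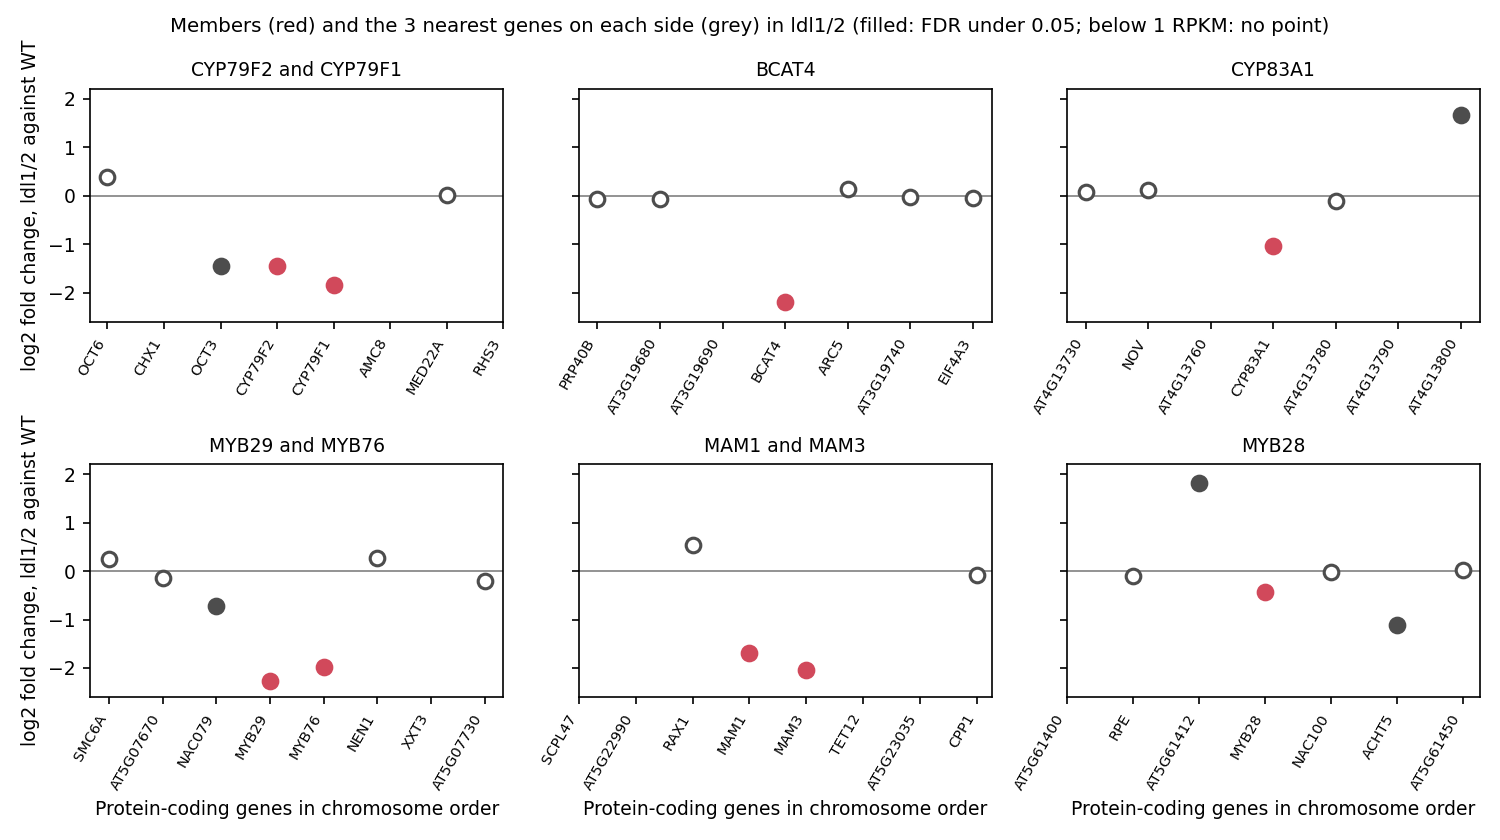
Log2 fold changes in ldl1/2 (vertical axis) of the members (red) and the 3 nearest protein-coding genes on each side (grey), in chromosome order at 6 places; filled points have a deposited FDR under 0.05 and genes below 1 RPKM have no point. OCT3 (-1.46) lies level with CYP79F2 (-1.45), while most other neighbours lie near 0.

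Leaf and root markers were set beside these results. Of 4 leaf markers 3, the light-harvesting genes LHCB3, CAB1 and LHCB2.1, fell in ldl1/2 and rose both in hda6 and in the hda6/ldl1/2-labelled samples. Over all genes 4.09% were called lower in ldl1/2, and 4.38% and 9.59% higher in the other 2 comparisons. RBCS1A, the leaf marker with the highest WT level, was called in none (0.03 in hda6, -0.16 in ldl1/2, 0.17 in the hda6/ldl1/2-labelled samples, FDR 0.457 or above). The 4 leaf markers summed to 16201 RPKM in WT, 18139 in hda6, 13898 in ldl1/2 and 18424 in the hda6/ldl1/2-labelled samples, computed from the authors' deposited tables. Of 4 root markers NRT2.1 was below the filter in every comparison. Of the other 3 none was called in hda6 or ldl1/2. In the hda6/ldl1/2-labelled samples, where 7.82% of all genes were called lower, 3 of 3 fell. Over all 4 the levels came to sums of 54.2, 47.2, 56.8 and 23.9 RPKM in the same order. No marker was at 0 in any genotype, and NRT2.1 stood at 0.299 to 0.455 RPKM. Their part in the result was not tested.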

How the data were processed

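The files were the authors' 3 deposited tables, each comparing 1 mutant with WT. The deposited means are RPKM, read from the values, since the headers give no unit; the deposited log2 fold change, signed fold change (a score in which decreases are negative), p-value and FDR are the authors'. Bowtie and TAIR10 are named per the submitters' processing notes; the counting and the test are not given in the sources used here. Of 34262 genes, 33191 matched 1 gene of RefSeq's TAIR10.1 annotation by position, 32 several and 1039 none. Library depths came from low means on whole-read steps (tolerance 0.3%; 99.6% of low WT means lay on them). The larger mean had to reach 1 RPKM. Missing means were computed from the WT mean, the fold change and a constant per comparison. The method was tested on simulated tables without counting error. It was also checked on genes with both means deposited that were higher in the mutant, the kind that set the constant. The members and lists were chosen with earlier results of these data known. Named genes were all members, up to 4 per list and comparison by deposited p-value, the most abundant of each list, 3 neighbours on each side (all in the plot of neighbours, the called ones in the text) and the 8 genes of nearest pattern; other genes named were chosen after their values were seen. No test was run here; calls rest on the deposited FDR. Sequences are from RefSeq's TAIR10.1. Alternatives were a pseudocount added to RPKM means, RPKM ratios, centring, other filters and stricter calls. Python 3.11.15, pandas 2.3.3, numpy 2.4.6, scipy 1.17.1, Biopython 1.88 and matplotlib 3.10.9 were used.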

Additional observations from a re-analysis of the deposited data

How the results depend on the processing

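With 1 listed sample per genotype no spread between plants was available, so a median counted as moved past 0.1 on the log2 scale. The 9 falls in ldl1/2 remained 9 when p-values were adjusted over genes past the filter, at an FDR under 0.01 and without a filter, and were 8 with a filter of 5 RPKM (without MYB76) and with a log2 fold change of at least 1 (without MYB28). A pseudocount of 1 RPKM was added to the RPKM means, so values with it also lack the authors' scaling. The median in ldl1/2 moved from -1.85 to -1.64 with this pseudocount, beside -1.81 on RPKM ratios. Counts of members that rose went to 0 in hda6 (from 1) and to 0 in the hda6/ldl1/2-labelled samples (from 2) at an FDR under 0.01 and with the size rule. The median in the hda6/ldl1/2-labelled samples moved from 0.25 to 0.12 on RPKM ratios, where MAM3, not called, turned from 0.09 to -0.04. With the pseudocount, on the same unscaled means, that median was 0.10, close to the value on RPKM ratios. Leaving out MAM3, CYP79F2 and MYB76 gave a median of -1.77 in ldl1/2. No paired analysis was possible because the tables hold no values per library, and no library could be left out for the same reason. Depth limits mainly MYB76.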

Other observations

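Genes of at least 5 RPKM outside the 9 members were ranked by the Euclidean distance of their 3 deposited log2 fold changes to the medians of the members (0.07 in hda6, -1.85 in ldl1/2 and 0.25 in the hda6/ldl1/2-labelled samples). The 8 further gene lists, chosen with earlier results known, held 65 genes past 1 RPKM in each comparison. Among 14071 genes ranked, 7 of the 8 nearest were on these lists, a count that describes the ranking and supports no claim beyond it. They were GSTU20 (distance 0.107), IPMDH1 (0.142), BAT5 (0.142), IPMI-SSU3 (0.175), FMOGS-OX1 (0.178), FMOGS-OX3 (0.296) and IPMI-SSU2 (0.351). The remaining gene, at a distance of 0.121, was AK3 (AT3G02020), known as an aspartate kinase, for which the authors' deposited tables list 0.02 (hda6), -1.81 (ldl1/2) and 0.15 (the hda6/ldl1/2-labelled samples) on the log2 scale, and 31.4 RPKM in WT against a computed 9.14 RPKM in ldl1/2. The 3 comparisons share the WT mean, so a deviation of WT enters each of them.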
